A study of Mus musculus with 15 samples.

Results

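This account concerns 36 genes: Myc and 35 genes whose products build ribosomes in the nucleolus. They were chosen by name, and a gene belonged to the set where the gene name column of the scanner output carried one of the 36 symbols. All 36 were found, out of 27343 gene names on the array, through 68 probes on 77 spots, and 22 of them had more than 1 probe. RNA was hybridised to 15 Agilent mouse arrays in 1 colour. The cultured samples were mHep (7 arrays), taken to be expandable hepatocytes kept for 21 days in differentiation medium, and eHep (7 arrays), the same kind of cells in expansion medium, while the reference was 1 array of primary hepatocytes of C57B6 mice obtained by collagenase perfusion. Each of 3 mice gave both cultures: C57B6-No1 and 129S1-No1 with 3 arrays per medium, and 129S1-No2 with 1 array per medium. The labels did not spell out mHep, gave no age or sex, and named the strains as 129S1 and C57B6. For 129S1-No2 the source name of the mHep sample read eHep, and its title decided its place.

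Ribosomes are assembled in the nucleolus, where RNA polymerase I transcribes the long ribosomal RNA precursor, small nucleolar ribonucleoproteins modify it, and sets of processing factors fold, cleave and release the precursors of the small and the large subunit. MYC, a transcription factor that binds DNA together with MAX at the E-box CACGTG, is known to raise the expression of many of these genes in growing cells. In liver, hepatocytes are mostly at rest, and ribosome production is known to increase when they enter the cell cycle after injury or partial hepatectomy.

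The promoter sequence bears on the link to MYC, so windows from 250 bases before to 50 bases after the transcript start (RefSeq, GRCm38.p6) were searched for CACGTG, whose letters are the same on both strands. Windows were at hand for 29 of the 36 genes, not for Myc, Fbl, Npm1, Rrp12, Bop1, Rrs1 or Rpf1. The motif stood in 7 of the 29 (24.1%), namely Nop2, Ltv1, Rpf2, Utp20, Pes1, Tsr1 and Wdr43, against 7.15% of all 32851 windows and 8.91% of 17492 protein-coding genes. A match describes the letters only and is no measure of binding. The windows of Nop2, Pes1, Tsr1 and Wdr43 are shown because they hold the motif, in capitals, and those of Nop58 and Ncl because these genes stood furthest, among those with a window, above primary hepatocytes and hold none. The first base of the motif lay 60 bases before the start in Nop2, and in the transcript at base 3 in Pes1, base 25 in Tsr1 and base 18 in Wdr43. All run 5′ to 3′ along the gene.
Nop2, chr6:125131633-125131932, plus strand: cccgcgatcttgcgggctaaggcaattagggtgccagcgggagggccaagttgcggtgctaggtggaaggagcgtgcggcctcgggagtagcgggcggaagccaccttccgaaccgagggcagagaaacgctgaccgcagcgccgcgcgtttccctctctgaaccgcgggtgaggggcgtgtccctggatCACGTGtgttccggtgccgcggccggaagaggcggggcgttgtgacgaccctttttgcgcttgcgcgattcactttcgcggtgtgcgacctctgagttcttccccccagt
Pes1, chr11:3963725-3964024, plus strand: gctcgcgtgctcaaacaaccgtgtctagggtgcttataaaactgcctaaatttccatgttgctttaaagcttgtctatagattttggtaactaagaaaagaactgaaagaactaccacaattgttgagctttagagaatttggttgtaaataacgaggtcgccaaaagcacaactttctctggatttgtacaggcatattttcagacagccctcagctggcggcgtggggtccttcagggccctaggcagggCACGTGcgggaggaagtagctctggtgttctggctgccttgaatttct
Tsr1, chr11:74897830-74898129, plus strand: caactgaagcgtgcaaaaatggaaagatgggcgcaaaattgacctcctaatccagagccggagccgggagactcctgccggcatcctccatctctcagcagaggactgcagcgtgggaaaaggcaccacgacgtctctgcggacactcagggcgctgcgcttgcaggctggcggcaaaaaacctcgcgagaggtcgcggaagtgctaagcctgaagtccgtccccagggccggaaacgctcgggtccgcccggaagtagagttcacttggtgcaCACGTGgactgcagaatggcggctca
Wdr43, chr17:71615965-71616264, plus strand: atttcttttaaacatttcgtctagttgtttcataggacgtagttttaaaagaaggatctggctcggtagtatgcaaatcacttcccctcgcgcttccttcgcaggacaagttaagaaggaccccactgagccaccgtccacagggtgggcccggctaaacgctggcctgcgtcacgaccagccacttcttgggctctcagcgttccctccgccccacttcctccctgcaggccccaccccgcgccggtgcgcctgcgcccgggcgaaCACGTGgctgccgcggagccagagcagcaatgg
Nop58, chr1:59684756-59685055, plus strand: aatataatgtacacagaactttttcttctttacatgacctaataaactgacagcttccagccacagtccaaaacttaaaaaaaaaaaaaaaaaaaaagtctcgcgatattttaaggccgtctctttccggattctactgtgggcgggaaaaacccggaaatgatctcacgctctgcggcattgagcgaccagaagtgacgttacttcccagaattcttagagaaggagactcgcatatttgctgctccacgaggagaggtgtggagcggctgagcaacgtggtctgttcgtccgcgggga
Ncl, chr1:86359406-86359705, minus strand: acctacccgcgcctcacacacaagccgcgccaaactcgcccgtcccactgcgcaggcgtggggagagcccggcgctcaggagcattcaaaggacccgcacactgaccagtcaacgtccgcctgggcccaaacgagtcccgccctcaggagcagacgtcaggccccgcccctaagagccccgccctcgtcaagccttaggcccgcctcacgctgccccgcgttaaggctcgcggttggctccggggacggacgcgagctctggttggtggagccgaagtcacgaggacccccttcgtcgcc

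For mHep minus eHep, the median log2 difference was -0.82 over the 7 genes with the motif and -0.95 over the 22 without, and for eHep minus primary it was 1.15 and 1.04. For mHep minus primary it was 0.38 with the motif and -0.14 without. For the change in C57B6-No1 minus that in 129S1-No1, described below, it was -0.96 and -0.54. These differences between genes with and without the motif were not tested.

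Probe sequences, taken from the scanner output, show what was read on the array. One of the 3 Myc probes and the Ncl probe used below are given. The Ncl probe of 60 bases spans 391 bases of the genome.
Myc probe, mm9, chr15:61820925-61820984, plus strand: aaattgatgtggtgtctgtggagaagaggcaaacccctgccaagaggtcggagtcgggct
Ncl probe, mm9, chr1:88247602-88247992, minus strand: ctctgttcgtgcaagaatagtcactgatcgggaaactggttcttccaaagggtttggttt

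Levels below are log2 signals minus the 75th percentile of their array, averaged over the arrays of a mouse and medium. The probe with the highest mean signal stood for its gene, and levels of different genes come from different probes and cannot be set against each other. Differences are log2 differences of levels ± SE of the fit. The share of probes well above background was 48.8% to 61.9% on cultured arrays and 36.3% on the primary array, and no probe was saturated. Of the 36 genes, 33 were well above background on all 15 arrays. The other 3 were dark on the primary array: Dkc1 and Utp15, bright on all 14 cultured arrays, and Ltv1, bright on all mHep arrays but on 5 of 7 eHep arrays, with arrays 1 and 2 of 129S1-No1 dark. The first mHep array of C57B6-No1 stood apart, with the lowest share of bright probes among the cultured arrays, so results are also given without it. Of 10 hepatocyte markers, 7 were well above background on all mHep arrays, 3 on all eHep arrays and 10 on the primary array. Cyp2e1 was dark on every cultured array. In RNA from bulk cultures, fewer cells of a type and less RNA per cell cannot be told apart. P-values measure the spread between mice, or between arrays where stated.

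**Figure D1:**
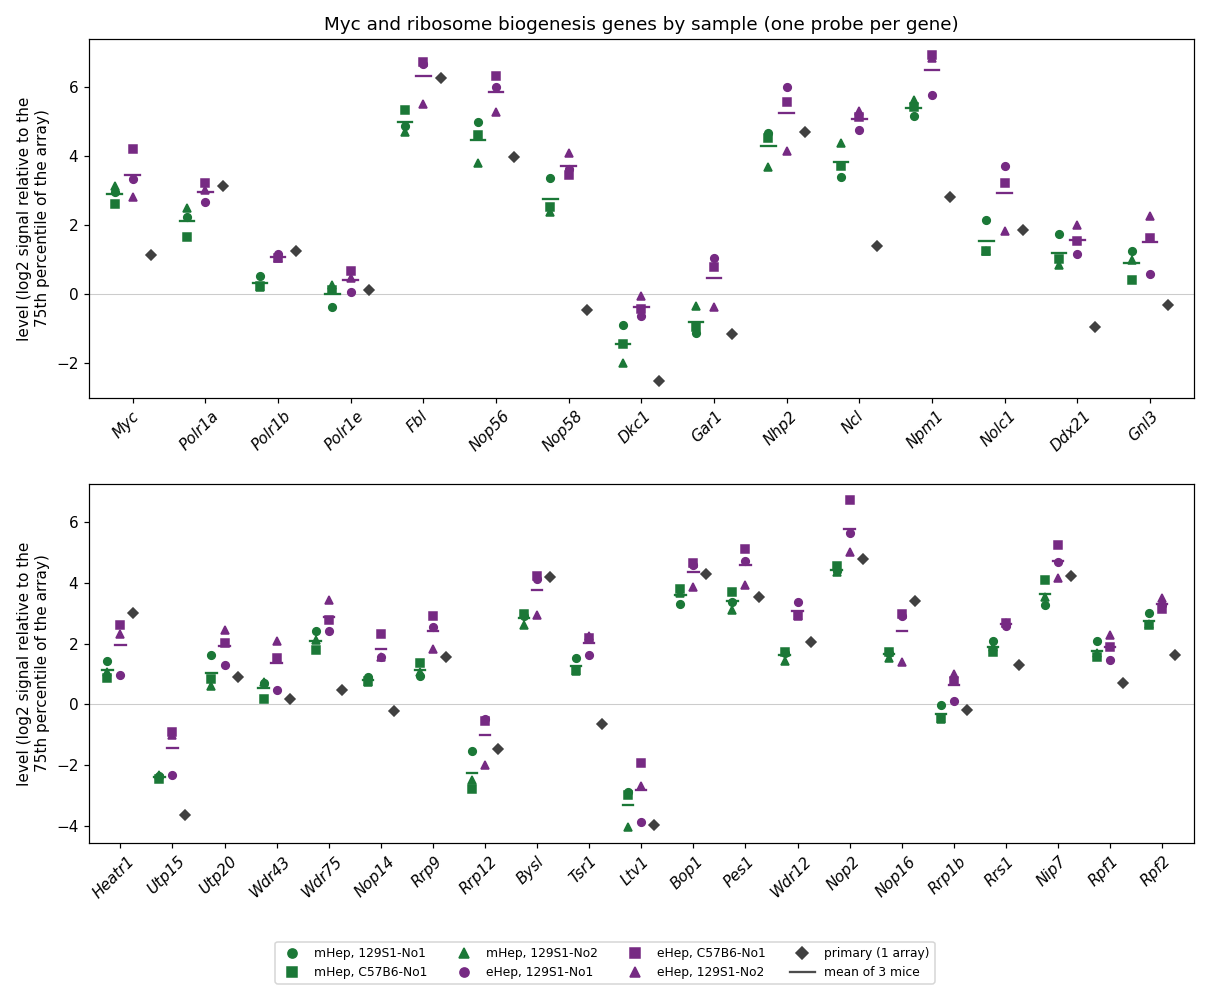
Level of each gene (log2 signal minus the 75th percentile of its array) in mHep, eHep and primary hepatocytes; symbols are mouse means, horizontal strokes the mean of 3 mice, and the diamond the single primary array. The eHep mean lies above the mHep mean for all 36 genes, and the distance to the primary array differs between genes, from far above in Nop58 to below in Heatr1.

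In mHep, ribosome biogenesis genes lay lower than in eHep, but none passed the test. All 36 differences were below 0, as were 56% of all 14594 tested genes. The median difference was -0.95 over the 36 genes and -0.10 over all tested genes. By limma with mouse as a block and the Benjamini-Hochberg adjustment over all tested genes, 0 of the 36 were lower and 0 higher at an adjusted p of 0.05, against 0.452% and 1.38% of all genes. At an unadjusted p of 0.05, 12 were lower (7.76% of all genes) and 0 higher (7.19% of all genes). A value below 0 in all 3 mice was seen for 25 of the 36 (23.4% of all genes), and in 19 every mHep mean lay below every eHep mean (8.96% of all genes). The differences ranged from -1.45 in Wdr12 to -0.11 in Rpf1. All 68 probes of these genes gave a value below 0, but only 49 of them were well above background on all 15 arrays. A second probe of Polr1b was bright on 0 arrays and one of Utp20 on 1. The share of all probes below 0 was not computed. Sizes depended on the probe in some genes, also among probes bright on every array, as in Wdr43 (-0.82 and -0.14). They were close in others, as in Npm1 (-1.10 and -1.30). Without the first mHep array of C57B6-No1 the median was -0.91, with 0 genes passing and all 36 below 0. With the 14 arrays as samples 27 passed as lower, beside 3091 genes of the whole array, and this fit counts arrays of the same mouse as independent.

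The mice differed in size of change. The median over the 36 genes was -1.24 in C57B6-No1, with all 36 below 0, -0.55 in 129S1-No1, with 28 below 0, and -0.84 in 129S1-No2, with 33 below 0. Over all tested genes the medians were -0.09 in C57B6-No1, -0.37 in 129S1-No1 and 0.06 in 129S1-No2. Of these 14594 genes, 8016 were below 0 in C57B6-No1, 9006 in 129S1-No1 and 6930 in 129S1-No2. The arrays came from an earlier and a later scan, and the member median was -1.18 within the earlier scan, which held 129S1-No2 and 1 array per medium of C57B6-No1, and -1.04 within the later one. No gene of the set passed in either. With scan as a block 6 passed as lower (413 genes of the whole array). That fit took C57B6-No1 once per scan, as if from separate mice. With slide as a block, over single arrays, 14 passed (1934 genes of the whole array).

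**Figure D2:**
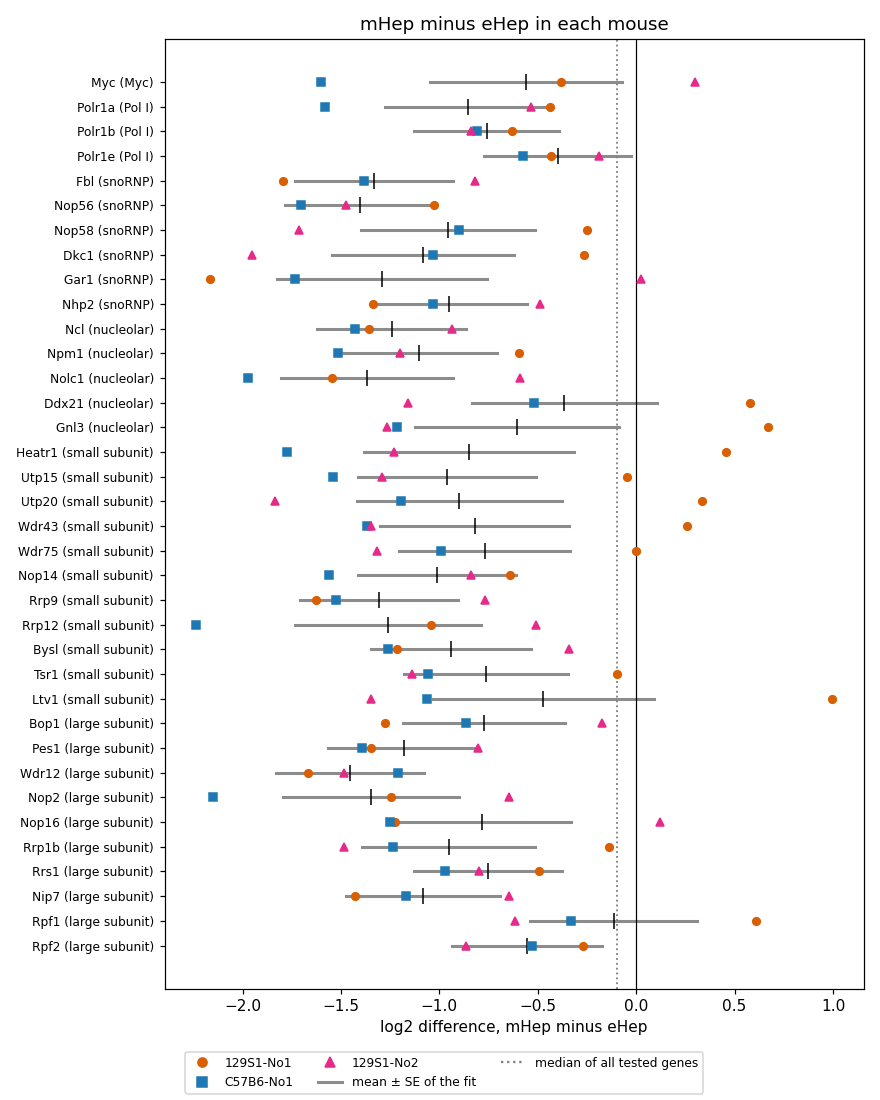
Log2 difference of mHep minus eHep for each gene (rows, role in brackets) in each of 3 mice, with the fitted mean ± SE as a bar and the median of all tested genes (-0.10) as a dotted line. Every fitted mean lies below 0, the C57B6-No1 values are all below 0, and 8 genes lie at or above 0 in 129S1-No1.

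Myc itself, the regulator, did not follow the other genes in every mouse. Its level in mHep was 2.60 in C57B6-No1, 2.96 in 129S1-No1 and 3.13 in 129S1-No2, against 4.20 in C57B6-No1, 3.34 in 129S1-No1 and 2.83 in 129S1-No2 in eHep, and 1.12 on the primary array. The mHep and eHep ranges overlapped, and every cultured mean lay above the primary value. The mHep minus eHep difference was -0.56 ± 0.49 (adjusted p = 0.664, limma, n = 3 mice), made up of -1.60 in C57B6-No1, -0.38 in 129S1-No1 and 0.30 in 129S1-No2. Without C57B6-No1 it was -0.04. Its 3 probes gave -0.56, -0.59 and -0.59.

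Wdr12, which forms the PeBoW complex of the large subunit pathway with Pes1 and Bop1, had the largest difference. Its level was 1.73 in C57B6-No1, 1.70 in 129S1-No1 and 1.44 in 129S1-No2 in mHep, against 2.95, 3.37 and 2.92 in the eHep cells of the same mice. The groups were more than 1 log2 unit apart in every mouse, and the difference was -1.45 ± 0.38 (adjusted p = 0.144, limma, n = 3 mice). Pes1 differed by -1.18 ± 0.38 and Bop1 by -0.77 ± 0.41. The second probe of Pes1 gave -0.16, so its size depended on the probe. Across the 10 large subunit factors the median was -0.87, and 8 of them had every mHep mean below every eHep mean. Nop2, a methyltransferase of the large ribosomal RNA, measured 4.58 in C57B6-No1, 4.40 in 129S1-No1 and 4.36 in 129S1-No2 in mHep, against 6.73, 5.64 and 5.01 in eHep of these mice. Its mHep values were close together and its eHep values spread, and the difference was -1.35 ± 0.45. Nip7, Rrp1b, Nop16, Rrs1 and Rpf2, further factors of the large subunit, lay between -1.08 and -0.56. The second probes of Nip7 and Nop16 gave -0.11 and -0.08. Rrs1 and Rpf2 are known in yeast to bring the small ribosomal RNA of the large subunit, with its proteins, into the precursor. For Nop16 129S1-No2 went the other way (0.12), as 129S1-No1 did for Rpf1 (0.61).

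The core proteins of small nucleolar ribonucleoproteins had the lowest median of the roles, -1.19 over 6 genes. Nop56, a scaffold of the box C/D particles that methylate ribosomal RNA, measured 4.61 in C57B6-No1, 4.98 in 129S1-No1 and 3.80 in 129S1-No2 in mHep, against 6.32, 6.01 and 5.28 in their eHep. Every mHep mean lay below every eHep mean, and the difference was -1.40 ± 0.38 (adjusted p = 0.165, limma, n = 3 mice). Fbl, the methyltransferase of the same particles, differed by -1.33 ± 0.40, and Nop58, the other scaffold, by -0.95 ± 0.44. In the box H/ACA particles, which convert uridine to pseudouridine, Dkc1, the enzyme, differed by -1.08 ± 0.46, Gar1 by -1.29 ± 0.53 and Nhp2 by -0.95 ± 0.39. Gar1 did not change alike in the mice, with -1.73 in C57B6-No1, -2.16 in 129S1-No1 and 0.03 in 129S1-No2.

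Among nucleolar proteins with wider roles the median was -1.10 over 5 genes. Ncl, nucleolin, an abundant protein that binds the ribosomal RNA precursor, measured 3.71 in C57B6-No1, 3.40 in 129S1-No1 and 4.37 in 129S1-No2 in mHep, against 5.14, 4.76 and 5.30 in eHep. The difference was -1.24 ± 0.38 and every mHep mean lay below every eHep mean. Npm1, nucleophosmin, a nucleolar chaperone, differed by -1.10 ± 0.40, and Nolc1, which accompanies small nucleolar ribonucleoproteins, by -1.37 ± 0.44. The second probe of Nolc1 gave -0.32. Gnl3, nucleostemin, and Ddx21, a helicase, differed by -0.61 ± 0.52 and -0.37 ± 0.47, with values above 0 in 129S1-No1 (0.67 for Gnl3 and 0.58 for Ddx21). The other probes of Ddx21 gave larger differences, -0.95 and -1.37.

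RNA polymerase I was represented by Polr1a and Polr1b, which form its catalytic centre, and Polr1e. Polr1b, with the narrowest spread of the 3, measured 0.23 in C57B6-No1, 0.52 in 129S1-No1 and 0.21 in 129S1-No2 in mHep, against 1.04, 1.15 and 1.05 in eHep of these mice. Each mouse lay lower in mHep, and the difference was -0.76 ± 0.37 (adjusted p = 0.409, limma, n = 3 mice). Polr1a differed by -0.85 ± 0.42 and Polr1e by -0.40 ± 0.37. The 11 small subunit factors had a median of -0.90. Leaving Myc aside, they split by mouse more than the other roles: the median was -1.37 in C57B6-No1, -0.05 in 129S1-No1 and -1.23 in 129S1-No2.

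That unequal change could be tested in the 2 mice with repeat arrays. The change in C57B6-No1 minus the change in 129S1-No1 was fitted over their 12 arrays. The test thus measures the spread between arrays of a mouse, and with 1 mouse per strain it cannot tell strain and mouse apart. The second 129S1 mouse, 129S1-No2, had 1 array per medium and was not in this test. Its median over the small subunit factors was -1.23, nearer to C57B6-No1 (-1.37) than to 129S1-No1 (-0.05). A part of strain was not tested. Of the 36 genes, 7 were lower and 0 higher at an adjusted p of 0.05 (limma), against 6.29% and 10.3% of 15735 tested genes. At an unadjusted p of 0.05, 16 were lower and 0 higher, against 13.4% and 19.4% of all tested genes. The median difference of changes was -0.72 over the 36 genes and 0.26 over all tested genes, and 29 of the 36 were below 0. The share of all tested genes below 0 was not counted, and their 25th percentile was -0.58. All 7 were small subunit factors, out of 11 in that role. Among the other roles Ddx21 and Gnl3 came closest to the threshold (adjusted p = 0.0509 and 0.0536, limma).

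Heatr1, which acts at the start of small subunit processing and is named Utp10 in yeast, had the largest of these differences. Its level in C57B6-No1 was 0.86 in mHep and 2.63 in eHep, while in 129S1-No1 it was 1.43 in mHep and 0.97 in eHep. In 129S1-No2, outside this test, it was 1.07 in mHep and 2.30 in eHep. The change was -1.77 in C57B6-No1 and 0.45 in 129S1-No1, a difference of -2.23 ± 0.31 (adjusted p = 0.00109, limma, n = 3 arrays per group). For Ltv1, a late assembly factor of the small subunit, the fitted difference was -2.06 ± 0.30 (adjusted p = 0.00144, limma). Its probe was well above background on 1 of the 3 eHep arrays of 129S1-No1, where it read between -3.89 and -3.88, near the dark primary reading of -3.98, so the size of this difference is not well determined.

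The difference was -1.53 ± 0.37 for Utp20 and -1.49 ± 0.32 for Utp15, both parts of the early small subunit processing complex. It was -1.19 ± 0.37 for Rrp12, known in yeast for export of ribosome precursors (adjusted p = 0.0498, limma). Tsr1, a late factor of the small subunit, gave -0.96 ± 0.28, and Nop14, which acts early, gave -0.92 ± 0.26. In 129S1-No2 the mHep and eHep levels were -4.03 and -2.69 for Ltv1, 0.60 and 2.44 for Utp20, and -2.32 and -1.03 for Utp15. They were -2.50 and -1.99 for Rrp12, 1.10 and 2.24 for Tsr1, and 0.73 and 1.57 for Nop14. For Heatr1, Utp15, Ltv1, Utp20, Nop14 and Tsr1 the eHep level of 129S1-No1 was the lowest of the 3 mice. Without the first mHep array of C57B6-No1, 9 genes were lower and Tsr1 no longer passed (adjusted p = 0.0506). Without array 1 or array 2 of every group 0 passed, with Heatr1 at -2.11 and -2.26, and with slide as a block Heatr1 and Ltv1 alone passed. Within the later scan 13 passed. The GC share of the probes moved with this difference, at r = 0.37 over the 36 genes and 0.22 over all tested genes, and its part in the result was not tested.

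**Figure D3:**
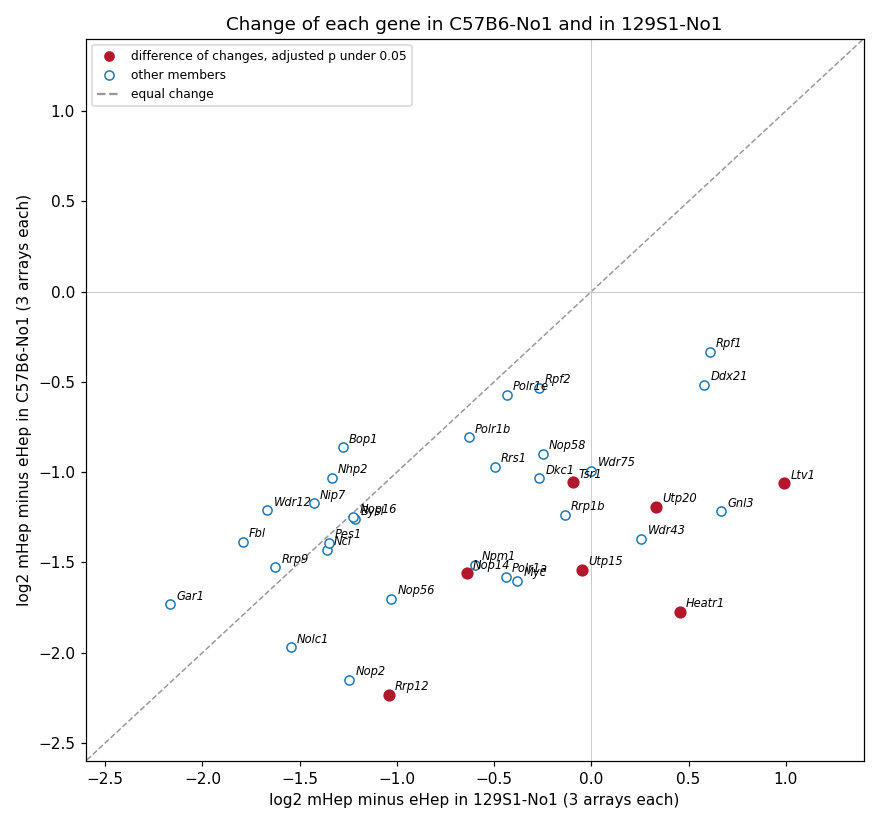
Log2 change of mHep minus eHep in C57B6-No1 (vertical) against that in 129S1-No1 (horizontal), with 3 arrays per group; filled points are the 7 genes whose changes differ at an adjusted p under 0.05, and the dashed line marks equal change. All points lie below 0 on the vertical axis, and 29 of 36 lie below the dashed line.

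Against primary hepatocytes, eHep held more RNA of several nucleolar genes. Here 3 eHep means were set against 1 primary array, whose spread was assumed to be that of the cultured means, and a gene also had to differ by at least 1 on the log2 scale. Of the 36 genes 6 were higher and 0 lower by limma, against 5.62% and 9.41% of 15165 tested genes, and at an unadjusted p of 0.05 the counts were 13 and 0, against 13.2% and 18%. The median difference was 1.10, against -0.19 over all tested genes. In 24 of the 36 every eHep mean lay above the primary value (31.1% of all genes), and in 3 below it (37.5%). A difference of at least 1 was seen in 22 (26% of all genes). Without C57B6-No1 none of the 36 passed (203 genes of the whole array higher), and without the first mHep array of that mouse the same count of 6 was obtained. Other scalings gave 10 or 11, where the whole array had 1151 to 1704 genes higher, against 852 as fitted. Other scalings also moved the median of all tested genes, to values between 0.28 and 0.33, with the member median then between 1.54 and 1.57.

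Nop58 had the largest difference. Its level was 3.44 in C57B6-No1, 3.62 in 129S1-No1 and 4.10 in 129S1-No2 in eHep, against -0.45 on the primary array. That is 18.0-fold (log2 difference 4.17 ± 0.63, adjusted p = 0.00777, limma, n = 3 mice against 1 array). Ncl measured 5.14, 4.76 and 5.30 in eHep of C57B6-No1, 129S1-No1 and 129S1-No2, against 1.38 on the primary array, a difference of 3.68 ± 0.60 (adjusted p = 0.0102, limma). Its 4 probes gave 3.68, 3.65, 3.60 and 0.93, so its size depended on the probe. Npm1 measured 6.92, 5.77 and 6.83 in eHep of these mice, against 2.82 on the primary array, a difference of 3.68 ± 0.65 (adjusted p = 0.0132, limma). The other genes that rose were Tsr1 (2.68 ± 0.55), Ddx21 (2.52 ± 0.63) and Wdr75 (2.42 ± 0.61), a factor of early small subunit processing. Ddx21 no longer passed with the mean of its probes (1.67), with normexp background correction (1.95) or without 129S1-No2 (2.31). Wdr75 no longer passed with quantile normalization (2.55), with the authors' table (2.55) or without 129S1-No2 (2.14).

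For Myc the eHep minus primary difference was 2.34 ± 0.67, or 5.05-fold (adjusted p = 0.0640, limma, n = 3 mice against 1 array). It missed the threshold as fitted and passed it with other scalings (adjusted p = 0.0288 to 0.0424, limma). In C57B6-No1 alone, the strain of the primary cells, the difference was 3.08. The spread there comes from repeat arrays of that mouse, so no p-value is given. Dkc1 and Utp15 were dark on the primary array, so their eHep levels were at least 3.36-fold and at least 1.61-fold higher. Each bound used the dimmest probe of the primary array that still counted as well above background. The second probe of Utp15 gave -0.58 for eHep minus primary, of the opposite sign. Other genes lay near the primary value. Polr1a and Polr1b, the catalytic core of RNA polymerase I, differed by -0.16 each, and Fbl by 0.04 and Bop1 by 0.06. Heatr1 (-1.05 ± 0.76) and Nop16 (-0.96 ± 0.75) lay below 0 in eHep minus primary, and neither passed the test. The other probes of Heatr1 gave 0.034 and 0.28, of the opposite sign. The roles thus ranged from medians of 2.52 over the nucleolar proteins and 1.76 over the ribonucleoprotein cores to -0.16 over the polymerase subunits.

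In mHep 27 of the 36 genes stood nearer to the primary array than in eHep, and 9 stood further from it, Heatr1, Fbl, Polr1a and Polr1b among them. The share over all genes was not computed. All 36 lay lower in mHep than in eHep, and 31 lay above the primary value in eHep (6966 of all 15165 tested genes). The count of 27 largely follows from these directions. Nop58 alone was higher, and 0 of the 36 were lower, by limma, against 4.02% and 5.97% of all genes. At an unadjusted p of 0.05 the counts were 7 and 1, against 11.2% and 16.4% of all genes. Nop58 measured 2.54 in C57B6-No1, 3.37 in 129S1-No1 and 2.39 in 129S1-No2 in mHep, against -0.45 on the primary array. The difference was 3.22 ± 0.63 (adjusted p = 0.0252, limma, n = 3 mice against 1 array). Npm1 (2.58 ± 0.65, adjusted p = 0.0546, limma) and Ncl (2.44 ± 0.60, adjusted p = 0.0517, limma) fell just short. The other probes of Ncl gave 2.42, 3.20 and -0.17, so its sign depended on the probe. Without the first mHep array of C57B6-No1 3 genes passed (673 genes of the whole array higher), and without C57B6-No1 none did (84 genes higher). The median over the 36 genes was 0.24, against -0.34 over all tested genes, and its sign depended on the setting. In 16 genes every mHep mean lay above the primary value (30.7% of all genes), and in 13 every mHep mean lay below it (45.9%). The difference was at least 1 in 13 (23.3% of all genes). Heatr1 had the lowest value, -1.90 ± 0.76, and Polr1a, Polr1b and Polr1e lay at -1.01, -0.92 and -0.13. Both comparisons with primary cells share that 1 array, as the mHep and eHep means come from the same 3 mice.

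**Figure D4:**
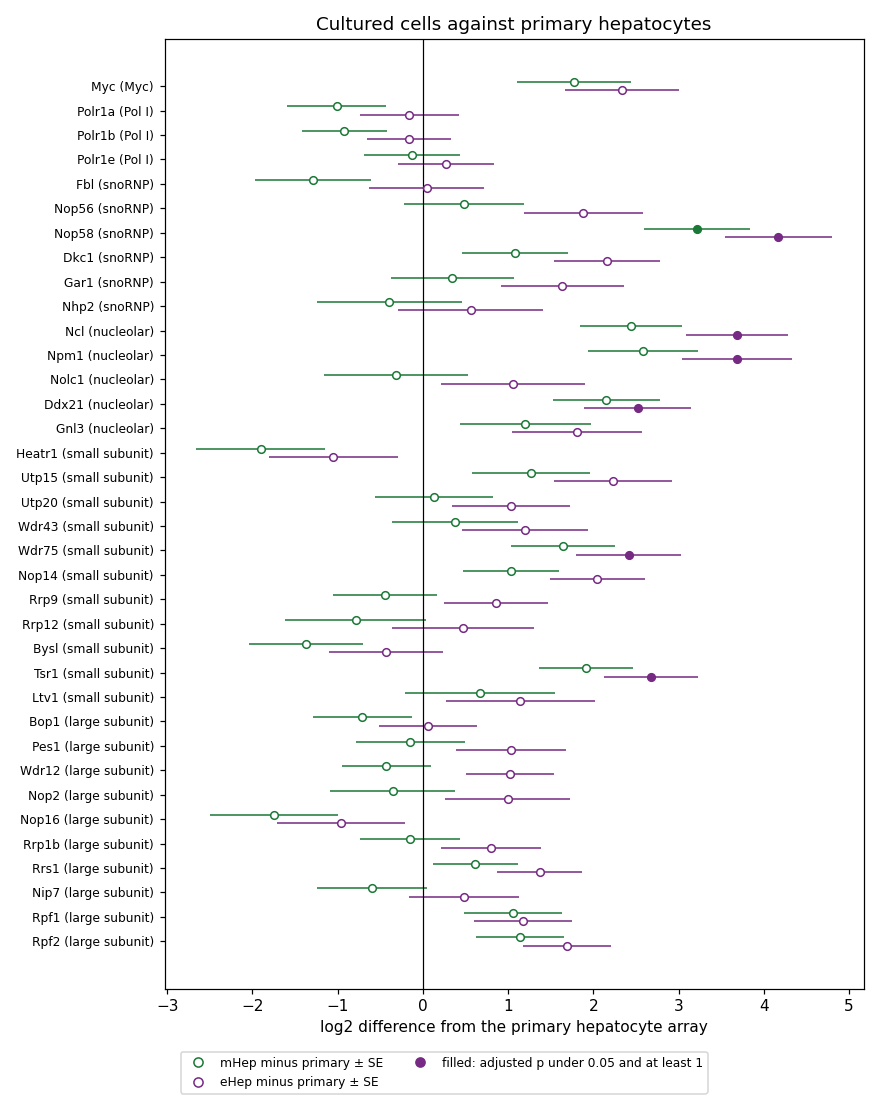
Log2 difference of mHep (green) and eHep (purple) from the single primary hepatocyte array, with the SE of the fit; filled points passed an adjusted p of 0.05 with a difference of at least 1. Nop58 passes in both, Ncl, Npm1, Ddx21, Wdr75 and Tsr1 in eHep, and the polymerase subunits lie near or below 0.

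Several other measures moved with these differences. Kupffer cell markers summed to between 0.391 and 1.19 in mHep and between 0.234 and 3.18 in eHep, against 16.6 on the primary array, in units of the 75th percentile signal, and endothelial markers summed to 0.418 to 1.09 in mHep and 0.521 to 1.92 in eHep, against 17.1. Of 10 Kupffer markers 7 were well above background on the primary array, where Cd68, Vsig4 and Timd4 were dark. Of 9 endothelial markers 5 were so, with Pecam1, Lyve1, Tek and Vwf dark. The 3 mesothelial markers, dark on the primary array, summed to 8.67 to 292 in mHep, 77.4 to 380 in eHep and 0.154 on the primary array. Of 5 biliary markers 5 were bright on all mHep arrays, 4 on all eHep arrays and 2 on the primary array, and they summed to 149 to 850 in mHep, 268 to 618 in eHep and 5.29 on the primary array. The 10 hepatocyte markers summed to 258 to 1311 in mHep and 3.14 to 21.8 in eHep, against 9517 on the primary array. The GC share of the probe correlated with the difference over the 36 genes, at r = -0.58 for eHep minus primary and -0.62 for mHep minus primary, against -0.10 and -0.14 over all genes tested. Their part in the results was not tested.

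The rest of the pathway, in lists written for this work without the 36 genes, leaned the same way between mHep and eHep. Of 53 other large subunit factors 52 were below 0 (median -0.72), of 49 other small subunit factors 46 (median -0.61), and of 10 other ribonucleoprotein factors 10 (median -0.75). In these 3 lists 0 genes passed (limma), and 11, 8 and 2 were lower at an unadjusted p of 0.05. Of all tested genes, 7.76% were lower at that level and 56% were below 0. The gene with the lowest adjusted p in each list was Nle1, a large subunit factor (-1.42 ± 0.37, adjusted p = 0.147, limma, n = 3 mice), Nob1, the nuclease that trims the small ribosomal RNA (-1.42 ± 0.39), or Ruvbl2, a helper of particle assembly (-1.25 ± 0.39). Other parts of the polymerase I machinery had a median of -0.48 over 15 genes, led by Taf1d (-1.88 ± 0.44, adjusted p = 0.115, limma), and the exosome, which trims ribosomal RNA, -0.50 over 17. Of these lists 0 genes passed, with 3 and 1 lower at an unadjusted p of 0.05 (7.76% of all tested genes). The 1 of 17 in the exosome lay below that share. Against primary cells, Tbp, a part of the polymerase I promoter factor (2.22 ± 0.52), and Dis3, an exosome nuclease (2.88 ± 0.69), were among those higher in eHep.

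The ribosomal proteins themselves followed another order among the mice. All 81 cytosolic ribosomal protein genes tested were below 0 for mHep minus eHep, with a median of -0.74, yet 0 passed (10 at an unadjusted p of 0.05, limma). At that level 7.76% of all tested genes were lower. The median change was -0.51 in C57B6-No1, -1.46 in 129S1-No1 and -0.19 in 129S1-No2, so the mouse with the smallest change of the 36 genes had the largest here. Rps19, a protein of the small subunit, differed by -1.35 ± 0.43. Against primary cells the ribosomal proteins had medians of -1.31 in mHep and -0.55 in eHep, where the 36 genes had 0.24 in mHep and 1.10 in eHep. Near-identical processed copies of ribosomal protein genes are common, and cross-hybridisation to them cannot be told apart on these probes.

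The partners and relatives of MYC showed no such lean. Of 18 genes of the MYC and MAX network 8 were below 0, with a median of 0.21, and 0 passed (limma). At an unadjusted p of 0.05, 3 were higher and 0 lower, against 7.19% and 7.76% of all tested genes. Max, the partner of MYC, averaged 3.35 ± 0.39 in mHep and 3.67 ± 0.44 in eHep (SD, n = 3 mice each) and 2.88 on the primary array. The MAX-binding antagonists of MYC Mxd4 and Mxd1 lay higher in mHep, by 1.97 ± 0.52 (adjusted p = 0.151, limma) and 1.63 ± 0.58. Mxd4 averaged 2.21 ± 0.42 in mHep and 0.24 ± 1.47 in eHep, against 2.60 on the primary array, and its change was 2.11 in C57B6-No1, 0.80 in 129S1-No1 and 3.00 in 129S1-No2. Mlxipl, the carbohydrate response factor ChREBP, differed by 1.74 ± 0.54 between mHep and eHep, with a primary level of 5.28. Mycn, a paralog of Myc, was at -0.90 ± 2.32 in mHep and -1.45 ± 1.85 in eHep and differed by 0.55 ± 0.45.

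Known MYC targets outside the nucleolus lay lower in mHep for 32 of 35 genes, with a median of -0.62 and 0 passing (limma). At an unadjusted p of 0.05, 6 were lower (7.76% of all genes). Cad, an enzyme of pyrimidine synthesis, differed by -1.83 ± 0.41 (adjusted p = 0.102, limma, n = 3 mice), Impdh2, of guanine nucleotide synthesis, by -1.42 ± 0.38, and Srm, of polyamine synthesis, by -1.37 ± 0.39. Against the primary array, 2 of the 35 were higher and 2 lower in mHep (4.02% and 5.97% of all genes). In eHep 3 were higher and 1 lower (5.62% and 9.41% of all genes). Srm was among those lower in mHep than on the primary array (-2.22, adjusted p = 0.0479, limma). The cell division list was given because MYC targets are known to accompany growth. It had 2 of 15 genes lower (0.452% of all genes), Ccnb1 (-4.19 ± 0.53, adjusted p = 0.0262, limma) and Aurka (-3.20 ± 0.50, adjusted p = 0.0432, limma), and a median of -2.21. By mouse that median was -1.05 in C57B6-No1, -2.97 in 129S1-No1 and -2.06 in 129S1-No2. The mouse with the largest change of the 36 genes had the smallest in cell division, and whether cell division had a part in their difference was not tested.

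**Figure D5:**
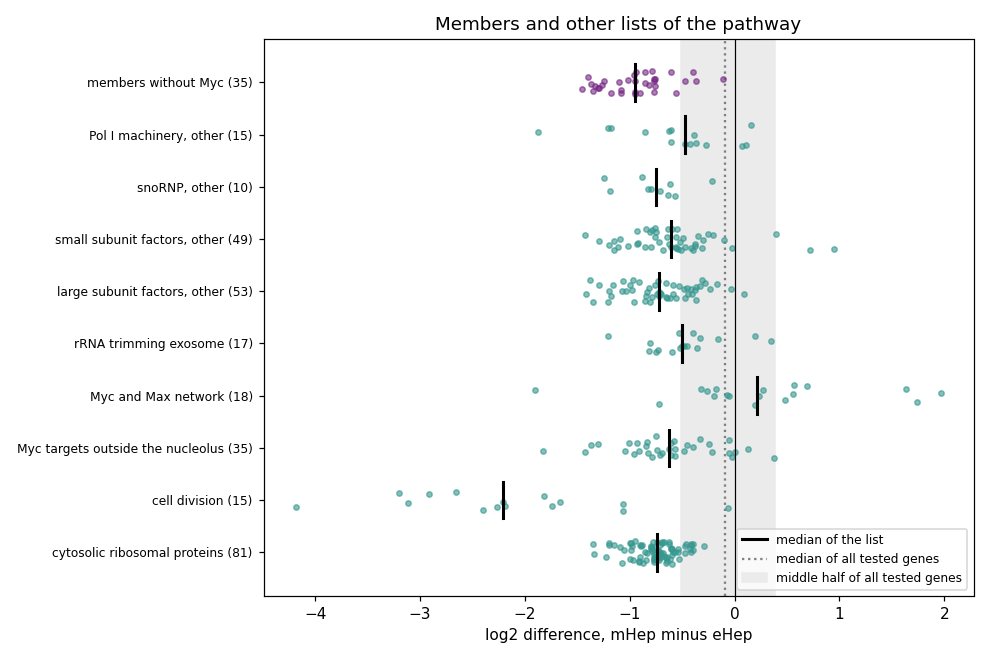
Log2 difference of mHep minus eHep for the 35 genes without Myc (purple) and for other lists (teal, genes tested in brackets); vertical strokes are list medians, the dotted line the median of all 14594 tested genes and the grey band their middle 50 percent. The lists of ribosome production lie left of the dotted line, the MYC and MAX network does not, and cell division lies furthest left.

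Over the 7 means, 3 of mHep, 3 of eHep and 1 primary, the gene most like Myc among 8736 genes bright on every array was Psph, an enzyme of serine synthesis (r = 0.989), followed by Crlf3 (0.962), Rad1 (0.960), Eif2s1 (0.959) and Asns (0.959). Most like the mean of the other 35 genes was Sdad1, a large subunit factor (r = 0.992), followed by Pphln1, Denr, Ppid and Senp8. Myc and that mean correlated at 0.76. Among the 35, Nop14 (0.91) and Npm1 (0.88) were nearest to Myc and Heatr1 furthest (-0.28). These values describe 7 points that share mice and scalings, and the primary array weighs on all of them.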

How the data were processed

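Each array was a Cy3 scan read by the authors with Feature Extraction of Agilent, version 10.7.3.1 on the later scan and 10.7.1.1 on the earlier one, with probe positions in mm9, per the file headers. The intensity used was the deposited processed signal, background-subtracted and detrended on each array but not scaled between arrays, per the file headers. The authors' deposited table gave log2 values whose quartiles did not differ between arrays, and how it was made is not given in the sources used here.

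Spots of a probe were averaged, log2 signals were set relative to the 75th percentile of each array, and arrays were averaged per mouse and medium. Genes were fitted with limma 3.58.1 in R 4.3.3, and p-values were adjusted by Benjamini-Hochberg over all tested genes. The mHep and eHep cells were compared on 6 means with mouse as a block, and cultures and primary cells on 7 means. A gene entered if every array of 2 or more mice in mHep or in eHep had its probe well above background. For comparisons with primary cells the primary array alone also sufficed. In the comparison of changes between mice, chosen later, it entered where it was so on all 3 arrays of any group. The scripts were tested on simulated data.

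The same mouse gave both cultures per the labels, and its deviations in mHep and eHep correlated at 0.56 for C57B6-No1, 0.40 for 129S1-No1 and 0.54 for 129S1-No2, with 0.0113 as the highest value between different mice. All 36 genes could be named, with 3 leading genes of each other list, all of the MYC and MAX network, those passing against primary cells and the 5 genes most like Myc or the mean of the others. Tbp, Dis3 and the second probes were named after their values were seen. The genes and lists were chosen with earlier results of these data known. Alternatives were normexp (offset 50), quantile, median and detected-probe scaling, the authors' table, other filters, probe means, trended moderation, slide or scan as a block, single arrays, and leaving out mice or arrays. The number of arrays limits the precision.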

Additional observations from a re-analysis of the deposited data

Results flagged for a closer look

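In each culture of 7 arrays the highest and the lowest reading of each gene were set against the others, 72 groups in all, and 10 stood apart. The nominal rate of this rule, about 1 in 20, presumes independent arrays. Arrays of the same mouse are not independent, so no excess over chance is read from this count. On the first mHep array of C57B6-No1 there were 6. Wdr43 (-0.77), Wdr75 (1.26) and Rpf1 (0.96) lay below the other mHep arrays, and Rrp9 (2.28), Bop1 (4.56) and Nop2 (5.15) above them. Myc lay at 1.99 on the second mHep array of that mouse, where the other mHep arrays ranged from 2.73 to 3.13. The eHep array of 129S1-No2 was low for Rrp12 (-1.99) and Nop16 (1.39), and the second eHep array of 129S1-No1 was low for Rrs1 (2.35).

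The change of mHep minus eHep differed between C57B6-No1 and 129S1-No1, by the test of the difference itself, for Heatr1 (-2.23), Ltv1 (-2.06), Utp20 (-1.53), Utp15 (-1.49), Rrp12 (-1.19), Tsr1 (-0.96) and Nop14 (-0.92). The value of Ltv1 rests on a probe that was dark on 2 eHep arrays of 129S1-No1. The causes of these readings and differences were not tested.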

How the results depend on the processing

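Between mHep and eHep the 36 genes were refitted under 19 other settings. Of 683 values 628 kept their direction and their side of the threshold, 49 came to pass it and 6 changed sign: Rpf1 with 14 arrays as samples (0.030), with slide as a block (0.11), within the later scan (0.16) and without 129S1-No2, and Ddx21 within the later scan (0.063) and without 129S1-No2. Leaving out a mouse gave -0.48 to 0.14 for Rpf1 and -0.84 to 0.031 for Ddx21. The member median stayed between -1.18 and -0.75. The count lower was 27 with 14 arrays as samples, 14 with slide and 6 with scan as a block, and 0 to 1 when a mouse was left out. Over the whole array the first 3 of these fits had 3091, 1934 and 413 genes lower. The fit with scan as a block took C57B6-No1 once per scan, as if from separate mice. Without the replicate block, which ignores that mHep and eHep of a mouse are paired, the member median was -0.95, 0 members passed, and 2 genes of the whole array were higher and 0 lower, against 202 and 66 with it.

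For eHep minus primary the count higher was 10 with quantile normalization (median 1.54), 11 with the percentile of detected probes (1.57), 10 with median scaling (1.57), 10 with the authors' table (1.54), 15 for C57B6-No1 alone (1.38) and 12 in the earlier scan (1.26). Leaving out a mouse gave counts of 0 to 7 and medians of 1.04 to 1.35. For mHep minus primary the median was 0.58 with quantile normalization, 0.82 with detected probes, 0.72 with median scaling, 0.58 with the authors' table, -0.13 with a strict filter and -0.0031 in the earlier scan. Its count higher was 2 with normexp, 3 with detected probes or a strict filter, 4 with median scaling, no filter, trended moderation or the earlier scan, 5 for C57B6-No1 alone (with 1 lower), 3 without the first mHep array of C57B6-No1, and 0 to 2 without a mouse. The difference of changes between mice had 11 genes lower with quantile normalization, 2 with slide as a block, 13 in the later scan and 0 to 7 without one array of each group. The later scan alone for that comparison, and leaving out the first mHep array of C57B6-No1, were chosen after the data were seen. The causes were not tested. The numbers of mice (3) and of primary arrays (1) limit the precision.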
